A study of Mus musculus with 122 samples.

Results

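Fc receptors bind the constant tail of antibodies, and this account follows the 6 mouse Fc receptor genes Fcgr1, Fcgr2b, Fcgr3, Fcgr4, Fcer1g and Fcgrt in alveolar macrophages and their fetal forerunners from mice that lack or carry an altered Cebpb gene. The 6 genes were chosen by name, not by their values, from the 22050 genes in each of 3 gene count tables, and all 6 were found in every table. All 6 passed the filter on low counts in each of the 24 comparisons made, so no member was lost to it. Cebpb encodes C/EBPb, a transcription factor of myeloid cells that is made from 1 messenger RNA as longer activating forms and as a short form, LIP, that lacks most of the activating part. The series asked what C/EBPb does in alveolar macrophages, the phagocytes that lie on the inner surface of the lung's air sacs.

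Activating Fc receptors for IgG take up antibody-coated particles and signal through a shared partner, the common gamma chain encoded by Fcer1g, whose cytoplasmic tail carries a tyrosine activation motif read by Src-family kinases and Syk. Fcgr1 encodes the high-affinity IgG receptor CD64, Fcgr3 encodes the low-affinity receptor CD16 of mice, and Fcgr4 encodes a receptor of intermediate affinity that binds mouse IgG2a and IgG2b. Fcgr2b encodes CD32b, the only inhibitory receptor of the family, whose tail recruits the inositol phosphatase SHIP1 and dampens the activating receptors. Fcgrt encodes the heavy chain of the neonatal Fc receptor FcRn, which pairs with beta-2-microglobulin inside endosomes and returns IgG and albumin from there to the outside of the cell. In macrophages, the balance of activating to inhibitory receptors is known to set the threshold at which antibody complexes trigger a response.

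The knockout comparisons in mice of mixed background used the Cebpb tm1Pfj line, with Cebpb -/- (KO), +/- (het) and +/+ (WT) adults whose alveolar macrophages were washed out of the lung (bronchoalveolar lavage) and sorted. In 1 experiment KO cells were sorted as CD11b low (n = 4) and CD11b high (n = 4) and set against WT cells (n = 4). In another, KO and WT cells came from females of facility 1 (2 KO, 3 het, 2 WT), females of facility 2 (2 KO, 3 WT) and males (2 KO, 2 WT). LyzMCre mice carried Cre in both Lyz2 alleles with Cebpb flox/flox (n = 2), against flox/flox mice without Cre (n = 2). CD11cCre mice carried an Itgax-cre transgene with Cebpb flox/flox (n = 4), against mice with the same transgene alone (n = 3). Both Cre strains were on C57BL/6, and Cre under these promoters is also active in other myeloid cells. Lip mice carry a Cebpb allele written C/EBPtm1.2Acle (Lip/Lip, CD11b low n = 4 and CD11b high n = 4, against Lip +/+, n = 3, mixed background). Fetal cells were taken from whole lung at E18: alveolar macrophage precursors (preAM) of Cebpb KO (n = 4) and WT (n = 3) and of Csf2rb -/- (n = 3) and +/+ (n = 4) embryos, and Ly6Chi monocytes of Cebpb KO (n = 4) and WT (n = 3) embryos. Csf2rb encodes the signalling chain of the receptor for the growth factor GM-CSF. In mixed chimeras, lethally irradiated CD45.1/2 recipients were given marrow of CD11c-Cre Cebpb flox/flox mice (CD45.2) together with WT marrow without Cre (CD45.1), and macrophages of both origins were sorted from whole lung at 5 weeks (4 KO, 3 WT) and 10 weeks (3 KO, 4 WT). Here Cre and the CD45 strain differ between KO and WT cells along with Cebpb. Another table, called RNA-for-ATAC by the submitters, holds alveolar macrophages of the tm1Pfj line (3 KO, 3 WT) and of the Lip line (4 Lip, 4 WT).

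Each library came from sorted cells by a 3' RNA method (MARS-seq). The 99 libraries held 642269 to 17834909 counts and 9387 to 13579 detected genes, and 3 counts, taken as the floor, correspond to 0.17 to 4.96 CPM (counts scaled to a common library total). Cebpb itself was at 24.1 to 84.1 CPM in the sorted adult KO groups against 538 to 1401 CPM in WT cells, and was lower than in controls in every library of every Cebpb KO group. It was not lower in the Lip libraries, whose allele is still transcribed (640 to 995 CPM in Lip, 486 to 668 CPM in Lip WT). Alveolar macrophage markers were present in each adult lavage group with all 12 of 12 detected. Their summed level in CD11b low KO cells was 1583 to 2740 CPM, and CD11b high KO cells held 397 to 918 CPM, against 9131 to 11170 CPM in WT cells. Interstitial or monocyte-derived macrophage markers (7 of 7 detected in each group) summed to 25418 to 31456 CPM among CD11b low KO cells, while CD11b high KO cells held 27960 to 32850 CPM and WT cells 1227 to 1487 CPM. The part of these marker differences in the receptor results was not tested, and in sorted bulk samples fewer cells of a type and less RNA per cell cannot be told apart. The T and NK cell and B cell lists summed to at most 2.65 CPM in the same 12 libraries. The labels do not tie libraries to animals, so p-values measure the spread between these samples.

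Fcgr2b, Fcgr4, Fcgr3 and Fcer1g lie close together on mouse chromosome 1 (GRCm38): Fcgr2b at chr1:170960558-170976071, Fcgr4 at chr1:171018926-171029761, Fcgr3 at chr1:171051169-171065915 and Fcer1g at chr1:171229572-171234349. Fcgr1 lies at chr3:96282909-96293969 and Fcgrt at chr7:45092993-45103822. The 250 bases before the RefSeq start site (GRCm38.p6) are shown for the 4 genes on which most results turn, since the data include C/EBPb binding and open chromatin there. The start site used for Fcgr3, chr1:171059403, lies inside the gene's span given above. Its window and all distances from it belong to this start and not to the upstream edge of the gene. Each is written 5′ to 3′ on the strand of the gene, and capitals mark matches to the C/EBP-type pattern TTNCNNAA on either strand, where N is any base.
Fcgr2b, chr1:170976072-170976321, minus strand: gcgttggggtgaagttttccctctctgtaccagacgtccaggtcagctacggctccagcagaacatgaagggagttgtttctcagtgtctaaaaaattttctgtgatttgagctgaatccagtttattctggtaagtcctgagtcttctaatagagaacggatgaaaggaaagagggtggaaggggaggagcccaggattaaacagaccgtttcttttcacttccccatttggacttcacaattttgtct
Fcgr4, chr1:171018676-171018925, plus strand: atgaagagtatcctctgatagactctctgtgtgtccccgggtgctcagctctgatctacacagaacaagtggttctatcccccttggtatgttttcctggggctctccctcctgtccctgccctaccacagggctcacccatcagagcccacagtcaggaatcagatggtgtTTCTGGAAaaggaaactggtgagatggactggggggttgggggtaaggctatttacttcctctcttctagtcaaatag
Fcgr3, chr1:171059404-171059653, minus strand: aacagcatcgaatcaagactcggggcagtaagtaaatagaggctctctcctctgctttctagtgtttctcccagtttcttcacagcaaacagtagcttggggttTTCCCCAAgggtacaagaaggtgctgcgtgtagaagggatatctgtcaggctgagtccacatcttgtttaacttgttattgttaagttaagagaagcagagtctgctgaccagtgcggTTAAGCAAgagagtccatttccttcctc
Fcgrt, chr7:45103823-45104072, minus strand: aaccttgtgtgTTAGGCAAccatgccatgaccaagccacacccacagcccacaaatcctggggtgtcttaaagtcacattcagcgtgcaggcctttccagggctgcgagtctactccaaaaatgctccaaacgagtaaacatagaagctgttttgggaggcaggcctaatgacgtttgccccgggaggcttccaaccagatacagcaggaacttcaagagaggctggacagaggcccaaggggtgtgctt
The pattern was found at 36.9% of the 27025 promoter windows in RefSeq's table, so its presence at Fcgr3, Fcgr4 and Fcgrt is a description of letters and not a binding site. Fcgr3 held 2 matches, at -146 and -28 from the start site, Fcgr4 held 1 at -78 and Fcgrt 1 at -239. These letters were not in the Fcgr2b window, nor in those of Fcgr1 and Fcer1g. The pattern TTCNNNGAA of STAT factors, present at 7.18% of windows, was found in the Fcgr1 window at -109. The letters GAGGAA, a core read by PU.1 and present at 23.1% of windows, were found at Fcgr1, Fcgr3 and Fcgr4, 55, 6 and 22 bases before the start site. None of these matches overlapped another.

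In adult alveolar macrophages without Cebpb the inhibitory receptor gene Fcgr2b rose and the activating receptor gene Fcgr4 fell, in CD11b low as in CD11b high cells. Fcgrt fell in CD11b high KO cells. Among CD11b low KO cells 2 of the 6 receptor genes passed the test and among CD11b high KO cells 4 of 6, where 15.1% and 24% of all genes tested passed it. The median log2 fold change of the 6 genes was 0.29 and 0.31, beside medians of 0.00 and 0.01 over all genes tested. Levels are given in CPM scaled with TMM factors, which compare 1 gene between libraries of 1 table and not 1 gene with another.

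Fcgr2b was at 316, 326, 439 and 539 CPM in the 4 CD11b low KO libraries, at 501, 907, 1005 and 734 CPM in the 4 CD11b high KO libraries, and at 50.2, 36.1, 57.1 and 39.6 CPM in the 4 WT libraries. Every KO library lay far above every WT library. The fold change was 8.72 in CD11b low cells (log2 3.12 ± 0.27 SE, adjusted p = 1.32e-07) and 16.8 in CD11b high cells (log2 4.07 ± 0.28 SE, adjusted p = 2.78e-09). Between both KO fractions, CD11b high cells held 1.93-fold more (adjusted p = 0.0287), but their libraries overlapped and the call was lost in 6 of 8 refits that left out 1 library (adjusted p 0.00595 to 0.13), and was kept without CD11b low replicate 4 or CD11b high replicate 1. With a term for replicate number in the fit (the replicate block) the call was lost too (adjusted p = 0.053).

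Fcgr4 was at 39.7, 34.7, 32.8 and 44.9 CPM in CD11b low KO libraries, at 11.1, 15.8, 21.2 and 28.4 CPM in CD11b high KO libraries, and at 112, 92.8, 121 and 116 CPM in WT libraries. The 3 groups did not overlap and ran in the order CD11b high, CD11b low, WT. The level was 2.93-fold lower in CD11b low KO cells (log2 -1.55 ± 0.24 SE, adjusted p = 1.03e-04) and 5.75-fold lower in CD11b high KO cells (log2 -2.52 ± 0.25 SE, adjusted p = 2.97e-07). CD11b high KO cells were 1.96-fold below CD11b low KO cells (adjusted p = 0.0391), a call lost in 5 of 8 refits without 1 library (0.0143 to 0.145) and kept without CD11b low replicate 2 or CD11b high replicate 3 or 4. With all groups of the table in 1 fit (adjusted p = 0.0957) or with the replicate block (0.0544) it was lost too.

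Fcgr1 was at 88.2, 142, 121 and 142 CPM in CD11b low and at 125, 132, 138 and 147 CPM in CD11b high KO libraries, against 74.6, 56.7, 83.1 and 128 CPM in WT libraries. WT replicate 4 stood among the KO values and the other WT libraries stood below them all. In CD11b high cells the rise of log2 0.64 ± 0.23 SE passed the test by little (adjusted p = 0.0458), and 7 of 8 refits without 1 library lost it (0.00798 to 0.152), the exception being that without WT replicate 4, and scaling by library totals alone lost it too (log2 0.49, adjusted p = 0.116). The CD11b low value of log2 0.51 did not pass (adjusted p = 0.152), and without WT replicate 4 it was 0.75 (adjusted p = 0.0368).

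The other activating receptor, Fcgr3, held 539 to 958 CPM among CD11b low KO libraries, 380 to 1020 CPM among CD11b high KO libraries, against 579 to 720 CPM in WT libraries, and did not pass the test in either fraction (adjusted p = 0.456 and 0.714). Its partner chain Fcer1g held 1008 to 1295 CPM and 1003 to 1673 CPM in the KO fractions, against 723 to 1294 CPM in WT cells. It was not called, at log2 0.27 (adjusted p = 0.45) and 0.47 (adjusted p = 0.127), although leaving out CD11b high KO replicate 3 brought the second value to an adjusted p of 0.046. The gene of the neonatal receptor, Fcgrt, was at 322, 375, 266 and 191 CPM in CD11b low, and at 195, 111, 97.9 and 86.1 CPM in CD11b high KO libraries, against 382, 262, 380 and 534 CPM in WT libraries. Its fall in CD11b high cells was 3.20-fold (log2 -1.68 ± 0.28 SE, adjusted p = 1.48e-04), with no overlap with WT cells, and CD11b low cells overlapped with WT (log2 -0.44, adjusted p = 0.31). CD11b high KO cells lay 2.36-fold below CD11b low KO cells (adjusted p = 0.0143), a call lost without CD11b low replicate 1 or CD11b high replicate 2 or 4 (adjusted p up to 0.0653). In all, 3 of 6 receptor genes differed between the KO fractions, against 3.8% of all genes.

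**Figure D1:**
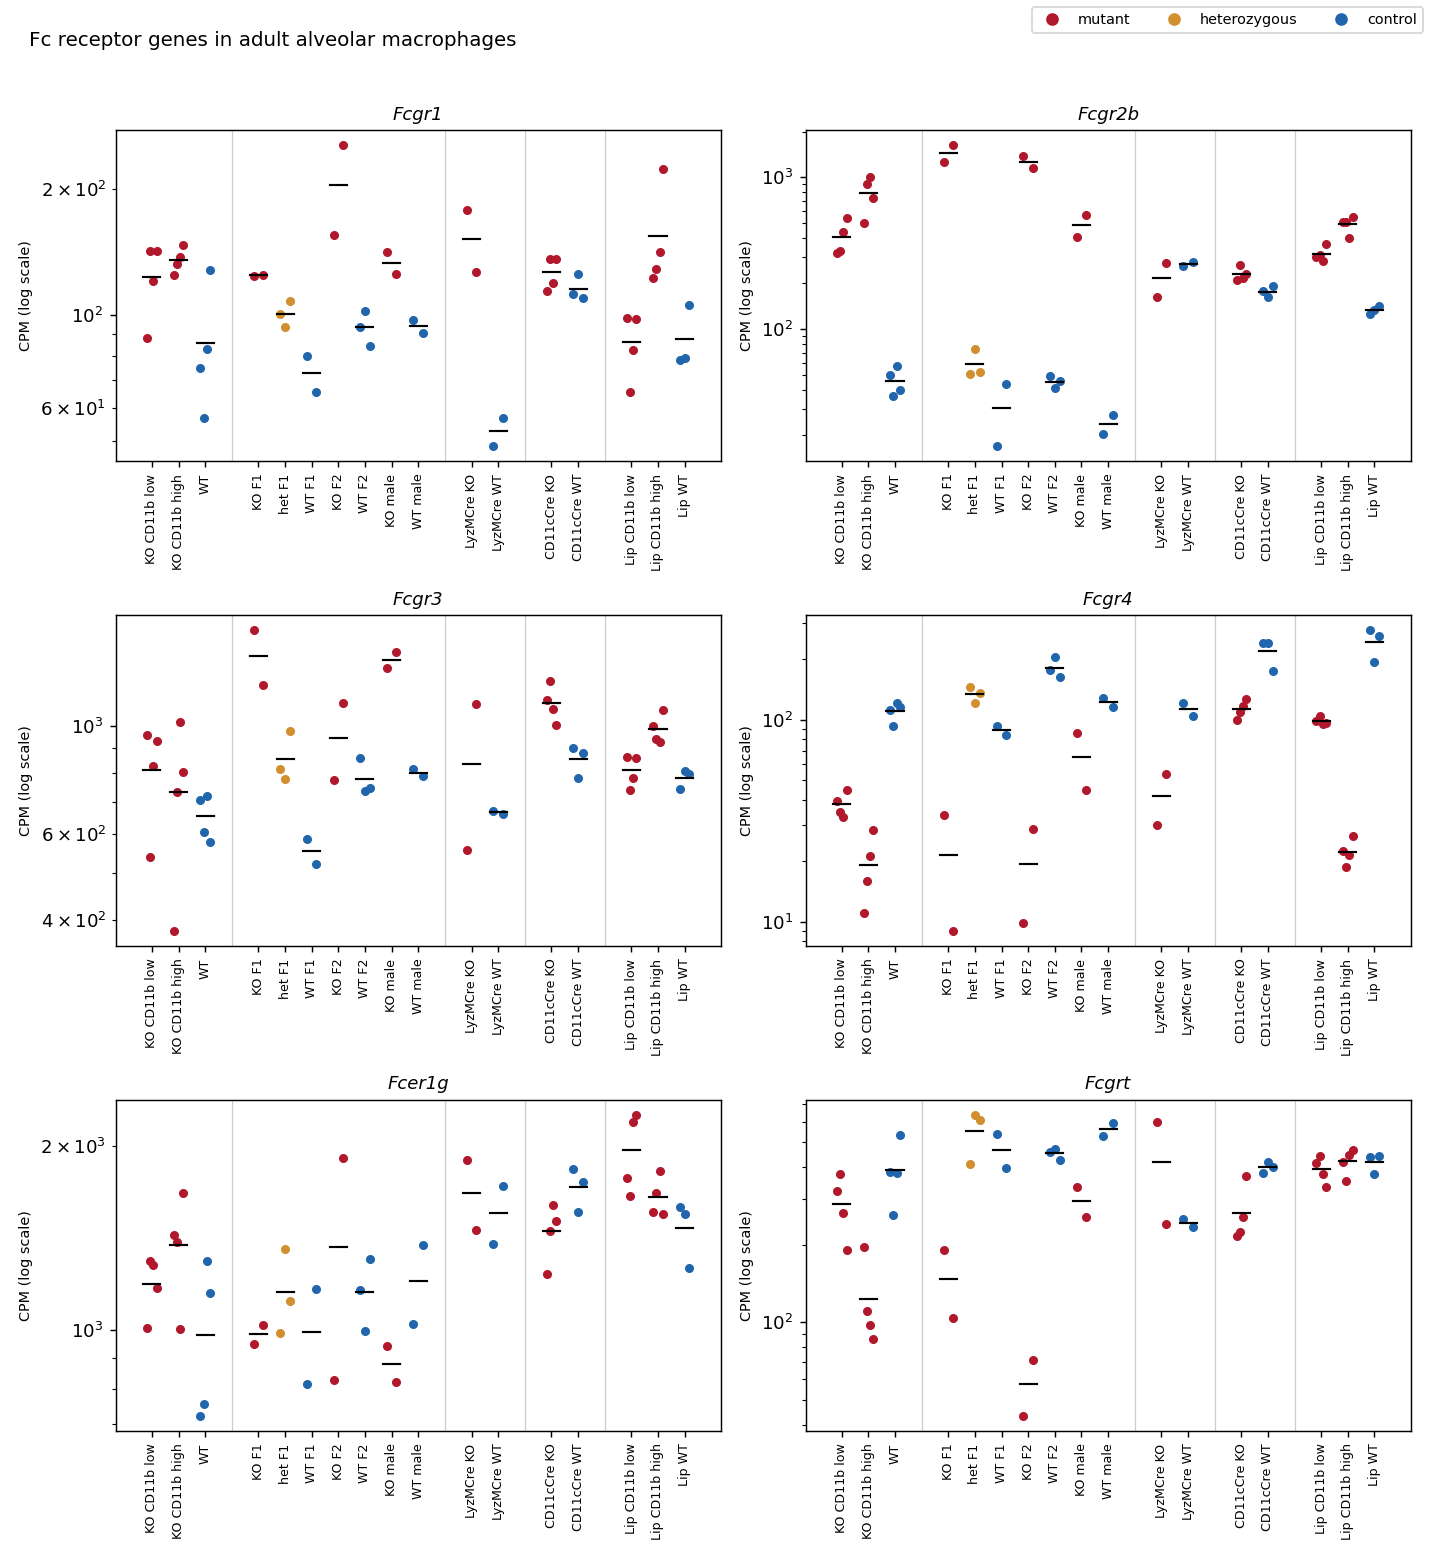
Level of each Fc receptor gene (CPM, log scale) in every adult alveolar macrophage library of the main table, with 1 point per library, a bar at the group mean, and mutant groups drawn left of their controls. Fcgr2b lies between 316 and 1619 CPM in the tm1Pfj KO libraries, above all WT libraries of that line, and Fcgr4 lies lower in every Cebpb-deleted group than in its controls.

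The females of 2 facilities and the males gave another set of KO and WT libraries of the same line. Averaged over the 3 strata, 5 of 6 receptor genes were called, where 45.4% of all genes were: Fcgr2b, Fcgr1 and Fcgr3 rose, Fcgr4 and Fcgrt fell, and Fcer1g was not called. The 6 genes had a median log2 fold change of 0.39 beside 0.02 over all genes. These 5 calls held in all 13 refits that left out 1 library. Summed alveolar macrophage markers were at 443 to 937, 125 to 335 and 2119 to 2721 CPM in KO cells of facility 1, facility 2 and males, against 7803 to 10254, 7746 to 11515 and 7850 to 8102 CPM in WT cells of the same strata. Interstitial markers were at 15899 to 21760, 15830 to 36902 and 9391 to 9939 CPM in those KO cells, against 411 to 1540, 900 to 1261 and 1534 to 1842 CPM in WT cells. Their part in the receptor values was not tested.

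Fcgr2b reached 1262 and 1619 CPM in KO females of facility 1, against 17.0 and 43.4 CPM in WT. In facility 2 it was at 1381 and 1145 CPM in KO, against 49.1, 41.0 and 45.5 CPM in WT, and in males at 405 and 568 CPM in KO, against 20.3 and 27.1 CPM in WT. No KO library came near a WT library in any stratum. The mean rise was 30.5-fold (log2 4.93 ± 0.20 SE, adjusted p = 3.43e-12), made of 47.8-fold, 28.8-fold and 20.6-fold rises in the same order (adjusted p = 1.29e-08, 1.79e-09 and 2.98e-07). In facility 1 the value was log2 5.58, and 6.42 without WT replicate 2.

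Fcgr4 was at 33.8 and 8.99 CPM in KO and 92.5 and 84.2 CPM in WT females of facility 1. In facility 2 it was at 9.81 and 28.6 CPM in KO, against 176, 203 and 163 CPM in WT. KO males held 85.8 and 45.0 CPM and WT males 128 and 115 CPM, so the male KO values were the highest of the KO libraries yet lay under the WT males. The mean fall was 3.94-fold (log2 -1.98 ± 0.28 SE, adjusted p = 6.29e-05), and it passed the test in facility 1 (adjusted p = 0.0113) and facility 2 (8.28-fold lower, adjusted p = 2.18e-04) but not in males alone (log2 -0.88, adjusted p = 0.291). The size in females rests on single KO libraries: in facility 1 the fall was 3.99-fold, with log2 -3.29 without KO replicate 1 or -1.37 without KO replicate 2, and in facility 2 it was -3.05, and -4.18 without KO replicate 2.

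The rise of Fcgr1 averaged 1.78-fold (log2 0.84 ± 0.12 SE, adjusted p = 1.09e-05). It was at 124 and 125 CPM in KO and 80.0 and 65.5 CPM in WT females of facility 1, at 155 and 254 CPM in KO and 93.7, 102 and 84.6 CPM in WT females of facility 2, and at 141 and 125 CPM in KO and 97.3 and 90.7 CPM in WT males. KO libraries lay above WT libraries throughout, by 1.74-fold in facility 1 (adjusted p = 0.00948, up to 0.117 without 1 library: lost without KO replicate 2 at log2 0.78 or WT replicate 2 at 0.65), 2.28-fold in facility 2 (4.38e-05) and log2 0.52 in males (not called, 0.127).

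Fcgr3 was at 1572 and 1217 CPM in KO and 587 and 522 CPM in WT females of facility 1. It was at 774 and 1116 CPM in KO and 859, 734 and 747 CPM in WT females of facility 2, where the groups overlapped, and at 1315 and 1419 CPM in KO and 816 and 790 CPM in WT males. The mean rise was 1.77-fold (log2 0.82 ± 0.12 SE, adjusted p = 1.63e-05). It passed in facility 1 (log2 1.35, adjusted p = 1.45e-04) and in males (0.78, 0.0209), where all 4 refits without 1 library lost it (0.0648 to 0.156), and did not pass in facility 2 (0.33, 0.165), where it passed without KO replicate 1 (0.52, 0.0332).

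Fcgrt was at 191 and 104 CPM in KO females of facility 1, against 537 and 398 CPM in WT, and at 43.3 and 71.3 CPM in KO females of facility 2, against 458, 471 and 427 CPM in WT. KO males held 334 and 256 CPM and WT males 528 and 593 CPM. KO libraries lay below WT libraries in each stratum, with a mean fall of 3.52-fold (log2 -1.82 ± 0.17 SE, adjusted p = 9.37e-08). The falls were 3.11-fold in facility 1 (5.26e-04), 7.47-fold in facility 2 (5.00e-07) and 1.88-fold in males (0.0489), the last lost in all 4 refits without 1 library (0.0991 to 0.339). With all groups in 1 fit the male calls of Fcgr3 and Fcgrt were lost as well (adjusted p = 0.0708 and 0.0845). Fcer1g ranged from 820 to 1909 CPM in KO and from 816 to 1378 CPM in WT libraries, with log2 -0.04 ± 0.17 SE (adjusted p = 0.862). In facility 2, where it read log2 0.30 (adjusted p = 0.395), leaving out KO replicate 1 gave 0.73 (adjusted p = 0.0138). By stratum 5 of 6 receptor genes were called in facility 1, 4 in facility 2 and 3 in males, where 23.2%, 47.6% and 10.9% of all genes were.

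Females heterozygous for the deletion gave no called receptor gene with edgeR, where 0.634% of all genes were called. At an unadjusted p under 0.05 there were 3 such genes, Fcgr1, Fcgr2b and Fcgr3, and DESeq2 called 1, Fcgr3. Fcgr2b was at 50.6, 73.7 and 51.8 CPM in het and 17.0 and 43.4 CPM in WT females, and Fcgr3 at 816, 779 and 979 CPM in het and 587 and 522 CPM in WT females. Both genes were higher in each het than in each WT library (log2 0.93, adjusted p = 0.192, and log2 0.62, adjusted p = 0.174). Without WT replicate 2 the Fcgr2b value was 1.77 (adjusted p = 0.0352). Het cells held 595 to 1207 CPM of Cebpb, against 1314 to 1739 CPM in WT. Fcgr4 was at 144, 121 and 136 CPM in het cells, above the WT values of 92.5 and 84.2 CPM (log2 0.59, adjusted p = 0.653).

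A test of whether the KO effect differed between facilities called 1 of 6 receptor genes, Fcgr3, against 7.61% of all genes. The KO effect on Fcgr3 was smaller in facility 2 (log2 -1.03 for facility 2 minus facility 1, adjusted p = 0.036). The call was lost in 6 of 9 refits without 1 library (0.00762 to 0.138), and was kept without facility 1 KO replicate 2 or either facility 2 KO replicate. With all groups in 1 fit it was lost (adjusted p = 0.104). The values of Fcgrt (-1.27, adjusted p = 0.0581) and Fcgr2b (-0.73, adjusted p = 0.32) did not pass. That of Fcgrt passed without facility 1 KO replicate 2 (-1.66, adjusted p = 0.0136) or facility 2 KO replicate 2 (-1.72, adjusted p = 0.0225), and that of Fcgr2b without facility 1 WT replicate 2 (-1.61, adjusted p = 0.0379). The Fcgrt value also passed with library totals alone, without the filter and with DESeq2 (adjusted p = 0.0211, 0.0173 and 0.0213).

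Deletion with LyzMCre gave a receptor pattern without a rise of Fcgr2b. The inhibitory gene was at 162 and 274 CPM in LyzMCre KO libraries and at 261 and 278 CPM in flox/flox controls (log2 -0.28 ± 0.30 SE, adjusted p = 0.744), and the groups overlapped. Fcgr1 was at 178 and 127 CPM in KO and 48.7 and 56.9 CPM in control libraries, a 2.89-fold rise (log2 1.53 ± 0.29 SE, adjusted p = 0.0193). Fcgr4 was at 30.1 and 54.0 CPM in KO and 121 and 104 CPM in control libraries, 2.54-fold lower (log2 -1.35 ± 0.31 SE, adjusted p = 0.042). These 2 of 6 calls compare with 4.68% of all genes. Both were lost without either control replicate, with log2 values of 1.41 and 1.66 for Fcgr1 and -1.27 and -1.46 for Fcgr4. Without KO replicate 2 calls were gained for Fcgr2b (log2 -0.68, adjusted p = 0.00103) and Fcgrt (1.34, adjusted p = 1.23e-13), and without KO replicate 1 for Fcgr3 (0.73, adjusted p = 1.56e-06). Refits that leave 1 library in an arm take their spread from the other arm alone, so their p-values say nothing of the spread between the libraries of that arm. Fcgrt was at 597 and 239 CPM in KO and 252 and 234 CPM in control libraries, where KO replicate 1 stood apart (log2 0.79, adjusted p = 0.441). Summed alveolar macrophage markers were at 4164 and 7917 CPM in the 2 KO and 24207 and 26743 CPM in the 2 control libraries, and interstitial markers to 12497 and 27435 CPM in KO and 362 and 706 CPM in controls. Their part was not tested.

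Deletion with CD11cCre lowered Fcgr4 and changed 3 other receptor genes by under 1.5-fold. Fcgr4 was at 99.0, 109, 117 and 126 CPM in KO and 239, 240 and 174 CPM in Cre control libraries, 1.92-fold lower with no overlap (log2 -0.94 ± 0.14 SE, adjusted p = 5.70e-04), and this call held without any 1 library. Fcgr2b was at 210, 265, 218 and 230 CPM in KO and 178, 162 and 191 CPM in control libraries, higher by 1.31-fold (adjusted p = 0.0439). Fcgr3 was also higher by 1.31-fold, at 1129, 1236, 1084 and 1007 CPM in KO against 900, 782 and 881 CPM in controls (adjusted p = 0.0285), and Fcgrt was 1.49-fold lower, at 215, 225, 256 and 370 CPM in KO against 380, 417 and 401 CPM in controls (adjusted p = 0.0385). The groups did not overlap for these 3 genes, but most refits without 1 library lost the calls: 5 of 7 for Fcgr2b (0.0102 to 0.185), 6 of 7 for Fcgr3 (up to 0.141) and 6 of 7 for Fcgrt (up to 0.131). All 3 calls were kept without KO replicate 4, and that of Fcgr2b also without KO replicate 1. With all groups in 1 fit the 3 were lost (adjusted p = 0.516 for Fcgr2b, 0.372 for Fcgr3 and 0.191 for Fcgrt). Those of Fcgr2b and Fcgr3 were lost with library totals alone (0.104 and 0.0867), and that of Fcgr2b without the filter (0.0534). In this experiment 4 of 6 receptor genes were called beside 16.8% of all genes. Fcgr1 was at 114 to 136 CPM in KO and 110 to 125 CPM in control libraries (adjusted p = 0.513). The alveolar macrophage marker sum was 12482 to 19676 CPM in KO and 43936 to 46750 CPM in controls, and interstitial markers to 9920 to 14237 CPM in KO and 142 to 2330 CPM in controls, their part not tested.

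The control level of Fcgr2b itself differed between the experiments of the main table. Among adult cells it was at 17.0 to 57.1 CPM in the 11 WT libraries of the tm1Pfj line, at 126 to 142 CPM in Lip WT, at 162 to 191 CPM in the Cre controls of CD11cCre and at 261 to 278 CPM in the flox/flox controls of LyzMCre. Mouse line, background and experiment cannot be told apart here. In level, the KO cells of both Cre strains (162 to 274 CPM) lay under every KO library of the tm1Pfj line (316 to 1619 CPM).

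**Figure D2:**
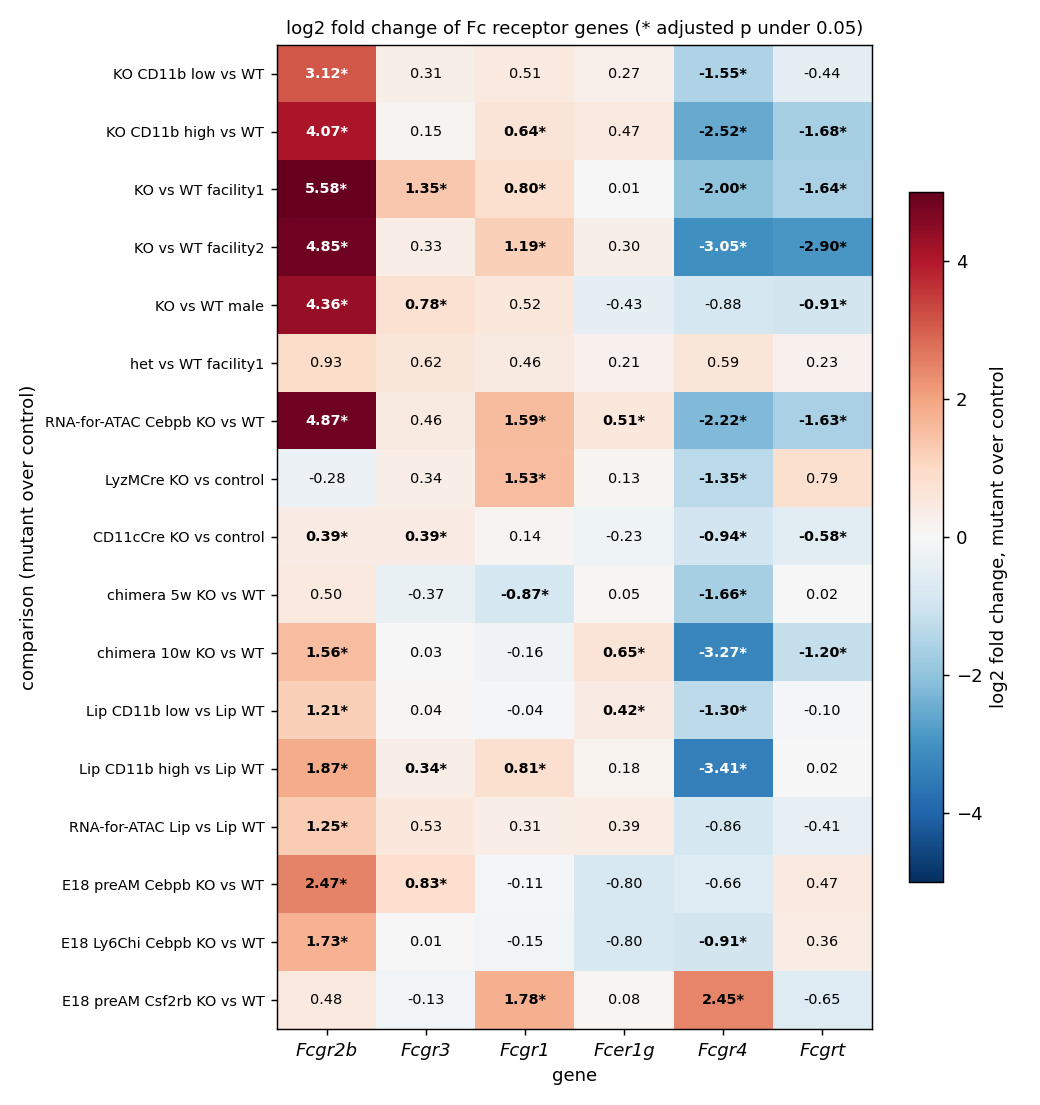
Log2 fold change, mutant over control, of the 6 Fc receptor genes in 17 comparisons, with a star where the adjusted p is under 0.05. Fcgr2b passed as higher in 13 comparisons and Fcgr4 as lower in 12, with Csf2rb -/- precursors the only comparison in which Fcgr4 passed as higher.

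In Lip/Lip macrophages the inhibitory Fcgr2b rose and Fcgr4 fell as well, and Fcgrt did not change by the test. Fcgr2b was at 298, 307, 280 and 364 CPM in CD11b low and 506, 505, 399 and 545 CPM in CD11b high Lip cells, against 126, 134 and 142 CPM in Lip WT. The 3 groups were separate, and the rises were 2.31-fold (log2 1.21 ± 0.12 SE, adjusted p = 1.28e-11) and 3.65-fold (log2 1.87 ± 0.12 SE, adjusted p = 3.87e-18). Fcgr4 was at 98.4, 104, 95.2 and 96.5 CPM in CD11b low and 22.2, 18.7, 21.5 and 26.4 CPM in CD11b high Lip cells, against 277, 193 and 258 CPM in Lip WT. These groups were separate too, with falls of 2.46-fold (log2 -1.30 ± 0.12 SE, adjusted p = 1.24e-12) and 10.7-fold (log2 -3.41 ± 0.15 SE, adjusted p = 3.78e-24). Among CD11b low Lip cells 3 of 6 receptor genes were called and among CD11b high Lip cells 4 of 6, beside 25.8% and 39.3% of all genes.

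Fcgr1 was at 98.4, 65.6, 82.6 and 98.1 CPM in CD11b low and 123, 129, 141 and 224 CPM in CD11b high Lip cells, against 78.2, 79.2 and 106 CPM in Lip WT. It rose in CD11b high cells alone by the test (1.76-fold, adjusted p = 0.00954, and 0.0536 without Lip WT replicate 2), and its level there was 1.81-fold above CD11b low Lip cells (adjusted p = 0.00836). Fcgr3 was at 864, 739, 782 and 860 CPM in CD11b low and 1001, 942, 929 and 1079 CPM in CD11b high Lip cells, against 745, 809 and 798 CPM in Lip WT, a 1.27-fold rise in CD11b high cells (adjusted p = 0.00307). Fcer1g was at 1659 to 2244 CPM in CD11b low, 1546 to 1820 CPM in CD11b high and 1260 to 1587 CPM in WT cells, and rose in CD11b low cells (1.33-fold, adjusted p = 0.00181). Fcgrt stayed between 336 and 467 CPM in all 11 libraries, with log2 -0.10 (adjusted p = 0.537) and 0.02 (adjusted p = 0.888). Between CD11b high and CD11b low Lip cells 4 of 6 genes differed, beside 19.5% of all genes, with Fcgr2b 1.58-fold higher (adjusted p = 1.42e-06) and Fcgr4 4.33-fold lower (adjusted p = 5.65e-15). Fcgr3 was 1.23-fold higher there (adjusted p = 0.00942, up to 0.059 without CD11b low replicate 2 or CD11b high replicate 4). Fcer1g, not called there, passed as lower without CD11b low replicate 1 or 2 or CD11b high replicate 3 (adjusted p down to 0.024), and without the filter on low counts (0.0322). With all groups in 1 fit the Lip calls of Fcer1g in CD11b low (adjusted p = 0.473) and Fcgr3 in CD11b high cells (0.271) against WT were lost, as were those of Fcgr2b (0.0872) and Fcgr3 (0.603) between the fractions. In CD11b low Lip cells the alveolar macrophage markers summed to 10960 to 14754 CPM, in CD11b high Lip cells to 3380 to 4960 CPM, against 26930 to 28835 CPM in WT. Interstitial markers reached 113 to 343, 1077 to 2427 and 123 to 199 CPM in the same order, overlapping between CD11b low Lip and WT cells, and the part of either marker set was not tested.

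Whether the full deletion and the Lip allele differed in effect was tested directly. The Fcgr2b effect of KO exceeded that of Lip by log2 1.91 ± 0.29 SE in CD11b low cells (adjusted p = 5.87e-05) and 2.21 ± 0.29 SE in CD11b high cells (adjusted p = 3.64e-06). The Fcgrt effect was lower in KO than in Lip for CD11b high cells (log2 -1.69 ± 0.33 SE, adjusted p = 8.56e-04). These are 1 of 6 genes in CD11b low and 2 of 6 in CD11b high cells, beside 4% and 5.97% of all genes. The Fcgr4 effects did not differ by the test (log2 -0.25, adjusted p = 0.703, in CD11b low and 0.92, adjusted p = 0.0602, in CD11b high cells). The second value passed without KO CD11b high replicate 1 (1.11, adjusted p = 0.00994) or Lip WT replicate 2 (1.06, adjusted p = 0.0364), and with DESeq2 (adjusted p = 0.0434). The WT baselines behind these effects differ for Fcgr2b, at 36.1 to 57.1 CPM in the KO experiment and 126 to 142 CPM in the Lip experiment.

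The RNA-for-ATAC libraries gave the same lines again in a table of their own. Fcgr2b was at 659, 578 and 510 CPM in KO and 14.5, 20.2 and 24.8 CPM in WT cells, a 29.2-fold rise (log2 4.87 ± 0.24 SE, adjusted p = 2.38e-06). Fcgr1 was at 275, 152 and 221 CPM in KO and 72.0, 67.6 and 74.4 CPM in WT cells, a 3.01-fold rise (adjusted p = 5.17e-04). Fcgr4 was at 26.4, 25.7 and 31.6 CPM in KO and 138, 103 and 148 CPM in WT cells, 4.65-fold lower (log2 -2.22 ± 0.19 SE, adjusted p = 3.19e-05). None of these groups overlapped. Fcgrt was at 136, 255 and 67.0 CPM in KO and 527, 472 and 423 CPM in WT cells, 3.10-fold lower (adjusted p = 0.0276, lost in 3 of 6 refits, without WT replicate 1 or 2 or KO replicate 1, up to 0.0834). Its value was log2 -1.63, and -2.24 without KO replicate 2, and without the filter on low counts the call was lost (adjusted p = 0.0674). Fcer1g was 1.43-fold higher in KO (1622 to 1782 CPM, against 1116 to 1233 CPM in WT, adjusted p = 0.0231). That call was lost in 4 of 6 refits (up to 0.128) and kept without KO replicate 2 or 3, and it was lost with library totals alone (0.196) and with all groups in 1 fit (0.141). Fcgr3 was not called (716 to 994 CPM in KO, 497 to 708 CPM in WT, adjusted p = 0.118) but passed without KO replicate 3 (log2 0.54, adjusted p = 0.0348). Thus 5 of 6 were called beside 27.2% of all genes. In sum, alveolar macrophage markers reached 261 to 590 CPM in these KO and 10831 to 13142 CPM in WT libraries, and interstitial markers to 20183 to 50639 CPM in KO and 1345 to 1705 CPM in WT, their part not tested.

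In the Lip libraries of that table Fcgr2b was the only called receptor gene, 1 of 6 beside 4.94% of all genes. It was at 583, 471, 651 and 411 CPM in Lip and 174, 234, 288 and 187 CPM in WT cells, 2.38-fold higher without overlap (log2 1.25 ± 0.23 SE, adjusted p = 0.00262). Fcgr4 was at 58.2, 40.5, 107 and 64.3 CPM in Lip and 78.0, 116, 193 and 98.4 CPM in WT cells, with Lip replicate 3 among the WT values (log2 -0.86, adjusted p = 0.16, and -1.17, adjusted p = 0.0308, without that library). Alveolar macrophage markers summed to 8612 to 13120 CPM in Lip and 18494 to 26413 CPM in WT libraries, and interstitial markers to 144 to 555 CPM in Lip and 175 to 226 CPM in WT, their part not tested.

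Before birth, loss of Cebpb went with more Fcgr2b in both fetal populations. In E18 preAM Fcgr2b was at 1080, 1052, 688 and 961 CPM in KO and 222, 171 and 117 CPM in WT cells, a 5.54-fold rise without overlap (log2 2.47 ± 0.27 SE, adjusted p = 1.82e-05). Fcgr3 was at 671, 735, 488 and 658 CPM in KO and 396, 384 and 295 CPM in WT cells, 1.78-fold higher (adjusted p = 0.0144, and 0.0993 without WT replicate 3). Fcgr4 was at 23.9, 36.5, 19.9 and 17.1 CPM in KO and 41.5, 53.0 and 20.3 CPM in WT cells, where WT replicate 3 lay with the KO cells (log2 -0.66, adjusted p = 0.196). Fcgr1 overlapped between groups (190 to 259 CPM in KO, 230 to 261 CPM in WT), as did Fcgrt (469 to 691 CPM in KO, 337 to 484 CPM in WT, log2 0.47, adjusted p = 0.155). Fcer1g held 616 to 1489 CPM in KO and 888 to 3252 CPM in WT cells, where WT replicate 1 stood high (adjusted p = 0.2, and 0.0274 as lower with all groups in 1 fit). These 2 of 6 calls stand beside 21.5% of all genes. Alveolar macrophage markers summed to 128 to 194 CPM in KO and 2222 to 2316 CPM in WT preAM, monocyte markers to 526 to 637 CPM in KO and 2501 to 2625 CPM in WT, and dendritic cell markers to 365 to 867 CPM in KO and 15.9 to 20.2 CPM in WT. Interstitial markers summed to 8276 to 10579 CPM in KO and 3945 to 7566 CPM in WT, and the part of these markers was not tested.

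Csf2rb -/- preAM showed another pattern, in which Fcgr1 and Fcgr4 rose. Fcgr4 was at 183, 242 and 259 CPM in Csf2rb KO and 31.5, 60.1, 39.2 and 46.6 CPM in WT cells, a 5.48-fold rise (log2 2.45 ± 0.27 SE, adjusted p = 2.42e-04). Fcgr1 was at 769, 653 and 871 CPM in KO and 206, 327, 197 and 226 CPM in WT cells, 3.43-fold higher (log2 1.78 ± 0.22 SE, adjusted p = 4.30e-04). Neither gene overlapped between groups, and 2 of 6 calls stand beside 22.5% of all genes. Fcgr2b was at 132, 222 and 101 CPM in KO and 101, 97.6, 133 and 131 CPM in WT cells, with the groups overlapping (log2 0.48, adjusted p = 0.29). Fcgr3 (591 to 706 CPM in KO, 648 to 980 CPM in WT) and Fcer1g (912 to 1040 CPM in KO, 717 to 1563 CPM in WT) were not called. Fcgrt was at 197 to 386 CPM in KO and 365 to 529 CPM in WT cells (log2 -0.65, adjusted p = 0.101, and -1.01, adjusted p = 0.0118, without KO replicate 1). It also passed with library totals alone (adjusted p = 0.047) and with all groups in 1 fit (0.0144). Csf2rb was at 293 to 360 CPM in these KO and 831 to 1223 CPM in WT cells. Alveolar macrophage markers summed to 72.4 to 288 CPM in KO and 1337 to 2195 CPM in WT, and interstitial markers to 27886 to 39156 CPM in KO and 1764 to 2424 CPM in WT. The part of these markers, and the difference between the Csf2rb and the Cebpb effect, was not tested.

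In E18 Ly6Chi monocytes Fcgr2b was at 392, 447, 547 and 495 CPM in KO and 167, 137 and 132 CPM in WT cells, 3.33-fold higher without overlap (log2 1.73 ± 0.20 SE, adjusted p = 3.16e-05). Fcgr4 was at 36.4, 23.1, 42.0 and 36.2 CPM in KO and 56.6, 82.2 and 61.7 CPM in WT cells, 1.88-fold lower (adjusted p = 0.0244), and 5 of 7 refits without 1 library lost that call (0.0113 to 0.229), which was kept without KO replicate 3 or WT replicate 1 and lost with all groups in 1 fit (0.089). The other receptor genes overlapped between groups: Fcgr1 held 385 to 638 CPM in KO and 569 to 645 CPM in WT, Fcgr3 394 to 692 CPM in KO and 479 to 615 CPM in WT, and Fcgrt 176 to 225 CPM in KO and 151 to 187 CPM in WT. Fcer1g held 991 to 2224 CPM in KO and 1546 to 4418 CPM in WT, where WT replicate 3 stood high (adjusted p = 0.4). The 2 of 6 calls stand beside 3.62% of all genes. Monocyte markers summed to 3497 to 6240 CPM in KO and 4932 to 11768 CPM in WT, alveolar macrophage markers to 50.6 to 92.1 CPM in KO (Cidec at 0) and 505 to 712 CPM in WT, and erythroid markers to 3552 to 29127 CPM in KO and 2968 to 17791 CPM in WT, their part not tested.

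**Figure D3:**
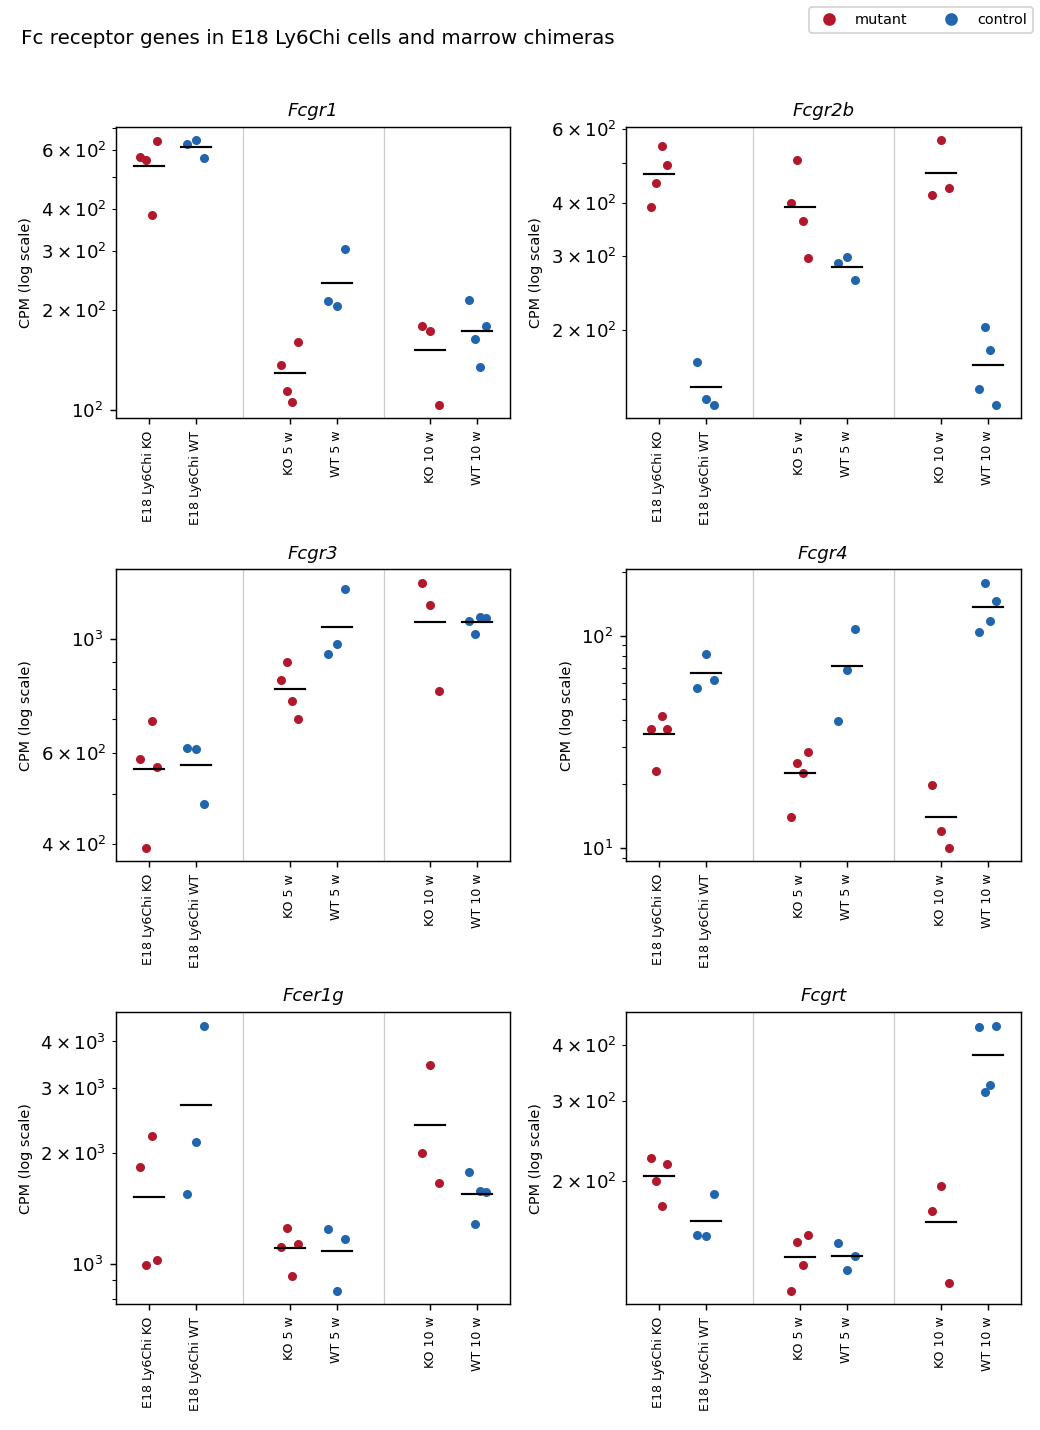
Level of each Fc receptor gene (CPM, log scale) in E18 Ly6Chi monocytes and in lung macrophages of mixed chimeras at 5 and 10 weeks, 1 point per library with a bar at the group mean, KO cells left of WT cells. Fcgr4 is at 10.0 to 28.1 CPM in all 7 chimera KO libraries and at 39.4 to 177 CPM in the 7 WT libraries.

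In the mixed chimeras, KO and WT macrophages were sorted from mice that held both. The labels do not say whether equal replicate numbers mark the same mouse, and the reported tests are unpaired. Fcgr4 was lower in KO cells at both times. It was at 14.0, 25.2, 22.5 and 28.1 CPM in KO and 39.4, 69.1 and 108 CPM in WT cells at 5 weeks, and at 19.8, 12.0 and 10.0 CPM in KO and 103, 177, 117 and 145 CPM in WT cells at 10 weeks. The groups were separate at both times, with falls of 3.16-fold (log2 -1.66 ± 0.32 SE, adjusted p = 0.00242) and 9.62-fold (log2 -3.27 ± 0.37 SE, adjusted p = 9.68e-06). The effect was more negative at 10 weeks (log2 -1.61 for 10 weeks minus 5 weeks, adjusted p = 0.0386). This call was lost in 9 of 14 refits without 1 library (up to 0.0977), and was kept without KO replicate 1 or WT replicate 3 of 5 weeks, or KO replicate 1 or WT replicate 1 or 3 of 10 weeks. Without the filter on low counts it was lost (adjusted p = 0.0692).

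Fcgr2b was at 401, 506, 364 and 296 CPM in KO and 289, 297 and 262 CPM in WT cells at 5 weeks, with KO replicate 4 among the WT values (log2 0.50 ± 0.18 SE, adjusted p = 0.0588, and 0.61, adjusted p = 0.0304, without that library). It passed with RLE size factors (adjusted p = 0.0485), with DESeq2 (0.0316) and with the replicate block (log2 0.60, adjusted p = 0.00988). At 10 weeks it was at 419, 567 and 434 CPM in KO and 144, 203, 179 and 132 CPM in WT cells, 2.94-fold higher (log2 1.56 ± 0.18 SE, adjusted p = 4.44e-06). The effect at 10 weeks exceeded that at 5 weeks by log2 1.06 ± 0.25 SE (adjusted p = 0.0111). KO levels overlapped between the times and WT levels did not, being lower at 10 weeks. Fcgrt was at 114 to 152 CPM in KO and 127 to 146 CPM in WT cells at 5 weeks, and at 172, 195 and 119 CPM in KO and 437, 314, 327 and 441 CPM in WT cells at 10 weeks, where it was 2.30-fold lower (log2 -1.20 ± 0.18 SE, adjusted p = 4.37e-05). That effect also differed between the times (-1.22 ± 0.24 SE, adjusted p = 0.00372), with KO levels overlapping between the times and WT levels higher at 10 weeks.

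Fcgr1 was at 136, 114, 106 and 160 CPM in KO and 213, 206 and 303 CPM in WT cells at 5 weeks, 1.83-fold lower (adjusted p = 0.00638, and 0.0507 at log2 -0.68 without WT replicate 3), and this was the 1 comparison of 17 in which it passed as lower. At 10 weeks it was at 179, 173 and 104 CPM in KO and 214, 164, 135 and 179 CPM in WT cells (adjusted p = 0.552). Its change of effect between the times was called only without 10 weeks KO replicate 3 (log2 0.93, adjusted p = 0.0302). Fcgr3 was not called at either time (699 to 903 CPM in KO and 935 to 1248 CPM in WT at 5 weeks, 794 to 1285 CPM in KO and 1023 to 1105 CPM in WT at 10 weeks), but passed as lower at 5 weeks with library totals alone (log2 -0.49, adjusted p = 0.0369). Fcer1g was called at 10 weeks (1.57-fold higher, adjusted p = 0.0184), where KO replicate 2 held 3457 CPM and the other libraries 1277 to 1998 CPM, and without that library it read log2 0.28 (adjusted p = 0.232). The call was also lost without WT replicate 2 (0.57, adjusted p = 0.0568) and with library totals alone (adjusted p = 0.0852). With the replicate block (0.0909) and with all groups in 1 fit (0.112) it was lost too. In all, 2 of 6 receptor genes were called at 5 weeks and 4 of 6 at 10 weeks, beside 22.5% and 45.5% of all genes, and the change of effect was called for 3 of 6, beside 13.5%. At 5 weeks alveolar macrophage markers summed to 544 to 996 CPM in KO (Marco at 0) and 3711 to 9163 CPM in WT cells, and at 10 weeks to 402 to 1316 CPM in KO and 16471 to 28513 CPM in WT cells. Interstitial markers summed to 9026 to 16010 CPM in KO and 10945 to 16168 CPM in WT at 5 weeks, and to 58330 to 91771 CPM in KO and 2012 to 13551 CPM in WT at 10 weeks, while dendritic cell markers at 5 weeks summed to 2234 to 3987 CPM in KO and 512 to 678 CPM in WT. Their part in the receptor values was not tested.

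Because Fcgr2b and Fcgr3 encode receptors with closely alike outer domains and opposite signals, the log2 ratio of Fcgr2b to Fcgr3 was taken in each library, with 0.5 CPM added to both, and only its differences between groups are read. The ratio was higher by log2 2.83 in CD11b low KO and 3.98 in CD11b high KO cells than in WT cells, and by 4.37, 4.53 and 3.56 in KO than in WT cells of facility 1, facility 2 and males. In Lip cells it was higher by 1.16 (CD11b low) and 1.52 (CD11b high) than in Lip WT. Fetal KO cells lay above WT cells by 1.67 in preAM and 1.73 in Ly6Chi monocytes, and chimera KO cells above WT cells by 0.84 at 5 weeks and 1.55 at 10 weeks. In RNA-for-ATAC cells the differences were 4.40 for KO and 0.74 for Lip, each against its WT. No library of these mutant groups overlapped with its controls. The ratio overlapped between groups in het cells (0.45), in CD11cCre cells (-0.0019) and in Csf2rb KO cells (0.54), and in LyzMCre KO cells it lay below the controls without overlap (-0.60). The sources used here do not say how reads shared by both genes were counted, and the split between them is therefore uncertain.

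**Figure D4:**
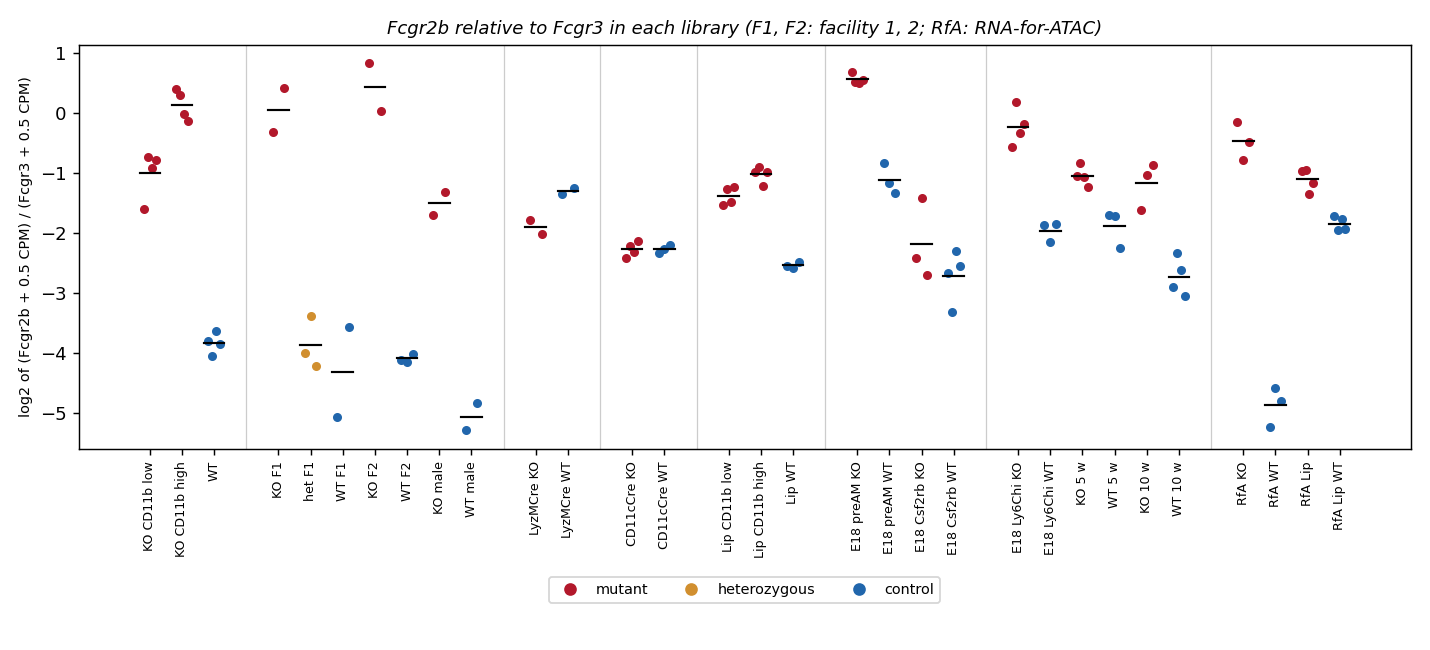
Log2 ratio of Fcgr2b to Fcgr3 CPM, each plus 0.5 CPM, with 1 point per library and a bar at the group mean, mutant groups left of their controls. KO libraries of the tm1Pfj line lie between -1.70 and 0.83 and adult WT libraries of the same line between -5.29 and -3.57 in the main table.

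Over the 17 comparisons of a mutant with its own control, Fcgr2b was called higher in 13, lower in 0 and not called in 4. Fcgr4 was called lower in 12, higher in 1 and not called in 4. The 3 remaining IgG receptor and chain genes had fewer calls: Fcgr1 was higher in 7 and lower in 1, Fcgr3 higher in 5 and Fcer1g higher in 3, each with no other call. Fcgrt was lower in 7 and higher in 0. The strata mean is not among the 17. Several comparisons share control libraries, so these counts are not counts of independent experiments. Both CD11b fractions of an experiment share the WT cells, and het and KO females of facility 1 share theirs.

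Among the 21 groups of the main table the order of mean levels had few clear steps. For Fcgr2b the highest groups were KO females of facility 1 (1440 ± 252 CPM, SD, n = 2) and facility 2 (1263 ± 167 CPM, SD, n = 2), above E18 preAM KO (945 ± 179 CPM, SD, n = 4), and the lowest were the tm1Pfj WT groups and het cells at means of 23.7 to 58.7 CPM. Only 3 of its 20 neighbouring pairs had separate ranges. For Fcgr4 Lip WT (242 ± 44.1 CPM, SD, n = 3), Csf2rb KO preAM (228 ± 39.9 CPM, SD, n = 3) and CD11cCre controls (218 ± 37.9 CPM, SD, n = 3) came highest, and CD11b high KO cells lowest (19.1 ± 7.44 CPM, SD, n = 4), with 2 separate neighbours. For Fcgr1, Csf2rb KO preAM stood alone at the top (764 ± 109 CPM, SD, n = 3), above E18 preAM WT of the Cebpb line (248 ± 15.7 CPM, SD, n = 3). Fcgr3 was highest in KO females of facility 1 (1395 ± 251 CPM, SD, n = 2) and lowest in E18 preAM WT (358 ± 54.9 CPM, SD, n = 3). The order of Fcgrt began with WT males (560 ± 46.2 CPM, SD, n = 2) and ended with KO females of facility 2 (57.3 ± 19.8 CPM, SD, n = 2). The means of Fcer1g lay between 881 and 1965 CPM, and no neighbours in its order were separate.

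The genes most alike to each receptor in their group means were found by Pearson r of log2(CPM + 1) over the 21 groups, among 8395 genes, as a description over groups that share libraries of 1 table and partly share controls. Fcgr2b was most like Aqp9 (0.91), Slc25a37 (0.90) and Ptpra (0.89). For Fcgr4 these were Arhgef2, Rinl and Baz1a (0.86 each), and for Fcgr1 Adam8 (0.93), Hes1 (0.92) and Lpar6 (0.91). Fcgr3 had no gene above 0.83 (Pttg1ip, then Tnip2 at 0.80 and Mamdc2 at 0.79). Fcer1g was closest to Arpp19 (0.86), Tmem167 (0.80) and Fuom (0.76), and Fcgrt to Jup (0.90), Rab11fip1 (0.88) and Prex1 (0.86). Between the receptors themselves, r was -0.70 for Fcgr2b with Fcgr4, -0.65 for Fcgr2b with Fcgrt, 0.46 for Fcgr4 with Fcgrt and 0.39 for Fcgr2b with Fcgr3.

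The signalling genes behind the receptors moved in both directions. Of 36 kinases and effectors listed for Fc receptor signalling, 34 were tested in the sorted KO fractions, where 5 rose and 5 fell in CD11b low and 6 rose and 7 fell in CD11b high cells. Over the strata 10 rose and 11 fell of 36, in E18 preAM 10 rose and 3 fell of 36, and in Ly6Chi monocytes 1 rose and 3 fell of 32. The share called over all genes was 15.1%, 24%, 45.4%, 21.5% and 3.62% in that order of comparisons. The list's median log2 fold change was -0.06, -0.14, -0.08, 0.25 and 0.03 in that order, beside 0.00, 0.01, 0.02, -0.02 and 0.01 over all genes. Blnk, an adaptor between Syk and its targets, averaged 43.7 ± 17.7 CPM in CD11b low and 50.0 ± 16.8 CPM in CD11b high KO cells, against 0.64 ± 1.29 CPM in WT cells (SD, n = 4 each, adjusted p = 1.19e-06 and 3.50e-07). Src, the founding Src-family kinase, and the adaptor Lat2 were also near 0 in WT cells (0.90 ± 0.62 and 1.16 ± 1.36 CPM) and rose in CD11b low KO cells (22.9 ± 6.64 and 25.2 ± 11.8 CPM, SD, n = 4). For these 3 genes WT levels lie at or under the 3-count floor of some libraries, so no fold is given.

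Cybb, the catalytic subunit of the phagocyte oxidase that makes superoxide, fell in all 5 comparisons, with log2 values of -1.46 in CD11b low KO cells, -1.83 in CD11b high KO cells, -0.77 over the strata, -1.33 in E18 preAM and -1.06 in Ly6Chi monocytes. Sh3bp2, an adaptor that binds Syk, fell in CD11b low KO cells (-1.14), over the strata (-0.92), in preAM (-0.74) and in monocytes (-0.81). Pik3ap1 fell in CD11b high KO cells (-1.69) and Ncf4, another oxidase subunit, in monocytes (-0.72). In preAM the Src-family kinase Fyn rose (log2 2.05), with Src (2.85) and Lat2 (2.24), and in monocytes Lat2 rose (1.09).

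Of 16 genes listed as inhibitory phosphatases, adaptors and receptors, 15 were tested in the sorted KO fractions. In CD11b low cells 2 were higher and 4 lower, and in CD11b high cells 2 were higher and 5 lower. The list also holds Lilra5, an activating receptor, which counts among the lower genes in both fractions, over the strata and in preAM. Over the strata 2 rose and 7 fell of 16, in preAM 1 rose and 5 fell of 16, and in Ly6Chi monocytes 0 rose and 3 fell of 16. These counts stand beside 15.1%, 24%, 45.4%, 21.5% and 3.62% called over all genes. The median log2 fold change of the list was -0.48, -0.32, -0.23, -0.25 and -0.35, beside 0.00, 0.01, 0.02, -0.02 and 0.01 over all genes. Cd300a, an inhibitory receptor for membrane lipids, rose in CD11b low (log2 1.23 ± 0.24 SE, adjusted p = 0.00102), in CD11b high (2.09 ± 0.24 SE, adjusted p = 1.71e-06) and over the strata (2.14). Lilrb4a, an inhibitory immunoglobulin-like receptor, rose in the same comparisons (0.77, 1.49 and 1.58). Lilra5, an activating receptor that pairs with the gamma chain in humans, fell (-2.01, -3.90 and -2.70, and -2.03 in preAM), and Sirpa, the receptor for CD47, fell in both sorted fractions (-0.84 and -0.97). The phosphatase gene Ubash3b fell in CD11b high KO cells (-1.19), over the strata (-0.87) and in monocytes (-1.10), and the adaptor gene Dok3 over the strata (-0.85), in preAM (-1.60) and in monocytes (-0.88). Pirb fell in CD11b low KO cells (-0.53), Cd300lf in preAM (-0.76) and Dok2 in monocytes (-0.80). Inpp5d, which encodes the SHIP1 phosphatase that Fcgr2b recruits, rose in preAM (0.64 ± 0.20 SE, adjusted p = 0.0358).

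Of 4 listed adaptors and partners of receptor chains 3 were tested. B2m, the light chain partner of Fcgrt, rose in CD11b high KO cells (log2 0.81 ± 0.26 SE, adjusted p = 0.031) and over the strata (0.93 ± 0.22 SE, adjusted p = 0.00289), where Fcgrt fell. Hcst, the signalling adaptor DAP10, fell over the strata (-0.53) and in preAM (-1.38). Among 12 other Fc receptor genes, 1 to 3 passed the filter in these 5 comparisons. Fcrls, an Fc receptor-like gene, averaged 109 ± 27.0 CPM in CD11b low and 92.1 ± 52.7 CPM in CD11b high KO cells against 1.87 ± 1.34 CPM in WT cells (SD, n = 4 each), and 86.8 ± 15.9 CPM (n = 4) in KO against 11.9 ± 9.23 CPM (n = 3) in WT preAM (adjusted p = 4.95e-07, 4.34e-07 and 1.16e-04).

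Genes within 100 kb of the 6 receptors were looked at in the same 5 comparisons. Of those tested, 1 of 22 was called in CD11b low KO cells (Rras, log2 -0.68), 2 of 22 in CD11b high KO cells (Sdhc, -0.92, and Rras, -1.04), 13 of 26 over the strata, 2 of 26 in preAM (Fcrla, 2.13, adjusted p = 0.0043, and B4galt3, 0.90) and 0 of 24 in Ly6Chi monocytes. Over all genes tested 15.1%, 24%, 45.4%, 21.5% and 3.62% were called in the same order, so the neighbours' share over the strata was near the background and those in the sorted KO fractions and preAM were below it. The log2 fold changes of these neighbours ran from -0.68 to 0.92 in CD11b low and from -1.04 to 1.05 in CD11b high KO cells, so none reached the rise of Fcgr2b or the fall of Fcgr4 in either fraction.

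C/EBPb binding was measured by ChIP-seq in 2 samples of WT C57BL/6 alveolar macrophages, as peaks that the authors called in each sample. Within 10 kb of the 6 genes there were 27 merged peak regions, of which 22 held a peak of both samples. Every receptor gene had at least 1 region in both samples. By a looser count, a peak of each sample within 10 kb whether or not they overlapped, 40.2% of 20545 genes and all 6 receptor genes passed. Fcgr2b had 7 regions (5 in both samples), Fcgr3 6 (5), Fcgrt 5 (4), Fcgr4 4 (3), Fcgr1 3 (3) and Fcer1g 2 (2). The peak with the highest enrichment, by the authors' fold of 31.2, lay at chr1:170952885-170953856, past the far end of Fcgr2b and 22663 bases from its start site. That of Fcgrt was at chr7:45082265-45083813 (fold 30.9), also past the gene's far end and 20568 bases from its start site. This region overlaps the neighbouring gene Rcn3, which was called lower over the strata (log2 -0.71, adjusted p = 0.0216) but not in preAM or Ly6Chi monocytes. Which gene the binding bears on was not tested. The highest peak of Fcer1g was at chr1:171232712-171233716 (23.4) inside the gene, and that of Fcgr4 at chr1:171016815-171018339 (20.3), 1248 bases before the start site. For Fcgr3 it was at chr1:171057065-171057955 (18.3) inside the gene and for Fcgr1 at chr3:96300486-96301086 (10.8), upstream. A ChIP region overlapped the promoter window of Fcgr1, Fcgr3 and Fcgrt, and none overlapped those of Fcgr2b, Fcgr4 and Fcer1g. That of Fcgr3 lies inside the gene, at the start site used. For these overlaps the window also runs past the start site. Over all 27025 promoters, 13.0% and 8.75% held a peak in the 2 samples. These peaks show binding near the genes in WT cells and were not measured in any mutant.

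Open chromatin was measured by ATAC-seq in alveolar macrophages kept in culture with CSF2 and then with interferon alpha, from MxCre+ Cebpb flox/flox (3 KO cultures) and MxCre+ control mice (2 cultures), a condition that differs from that of the RNA samples. Within 10 kb of the 6 genes there were 46 merged regions, and 27 of them were present in all 5 cultures, as were 40.4% of all ATAC regions and 67.7% of those that overlap a ChIP region. Fcgr2b had 10 regions, 8 of them in all 5 cultures, including the region at its start site and that under its highest ChIP peak. Of the other 2, 1 was in 1 KO and 1 control culture and 1 in 1 control culture only. The region at the Fcgr4 start site was called in 1 of 3 KO and both control cultures. In 0 of 46 regions was a peak present in all KO cultures and no control culture, beside 4.34% of 129652 regions in the genome. That genome share was 0.50% among regions that overlap a ChIP region and 5.30% among the others. In 3 of 46, a peak was present in both control cultures and in no KO culture, beside 3.83%. These lay at chr1:171053408-171053745 in Fcgr3, at chr1:171232884-171233399 in Fcer1g and at chr7:45083095-45083436 past the end of Fcgrt, and each overlapped a ChIP region. The last of them lies within the neighbouring gene Rcn3. Over the genome the control-only share was 5.84% among 25954 regions that overlap a ChIP region and 3.32% among the other 103698. A peak missing from a list can lie just under the caller's threshold, and whether these 3 regions differ in accessibility was not tested.

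**Figure D5:**
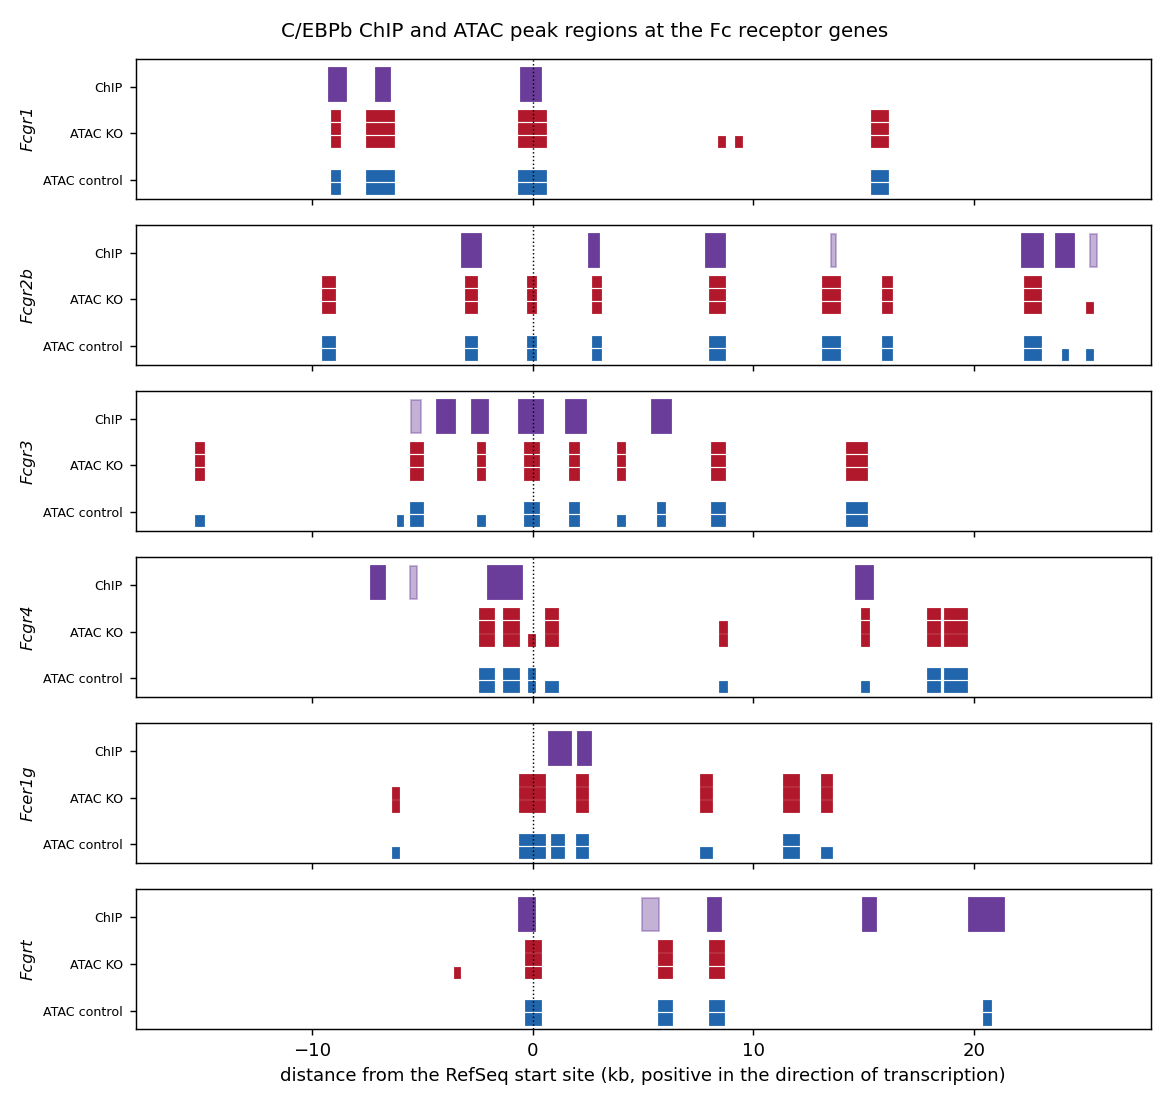
C/EBPb ChIP peak regions in WT alveolar macrophages (dark, both samples; pale, 1 sample) and ATAC peak regions in KO (red) and control (blue) cultures around the 6 genes, with stacked bands for the cultures that hold a peak; the x axis gives the distance from the RefSeq start site in kb, and each box is centred on its highest summit and drawn to the region's width. In Fcgr3, in Fcer1g and past the end of Fcgrt 1 region each is present in both control cultures and no KO culture. The start site used for Fcgr3 lies inside the gene.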

How the data were processed

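Gene counts were deposited by the authors as 3 tables of raw counts, 1 column per library, and were used as deposited. STAR 2.6.1a, featureCounts 1.6.3 and the build GRCm38 are among the names in the submitters' processing notes, but whether unique molecular identifiers were collapsed and how reads shared by alike genes were treated is not stated in these sources. C/EBPb ChIP-seq and ATAC-seq peaks were called per sample with MACS2 2.2.7.1, per the submitters' processing notes, on mm10. The deposited peak lists give for each peak the authors' score, fold enrichment over background, and -log10 p and -log10 q. The ChIP inputs and the other 14 ATAC-seq samples of the series were not analysed here.

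Comparisons used edgeR 4.0.16 (R 4.3.3): the robust quasi-likelihood test on TMM-scaled counts, after filterByExpr with a minimum count of 10. Benjamini-Hochberg adjustment covered all genes tested, with a threshold of 0.05. Filter, scaling and spread came from all groups of an experiment fitted together, such as both CD11b fractions with their WT cells, or both chimera times. KO and Lip groups shared a fit where their effects were compared. Every adjusted p comes from this edgeR test unless another is named, and SE is the absolute log2 fold change divided by the square root of the F statistic. Strata of facility and sex were fitted together and their KO effects averaged. Alternatives were RLE size factors, library totals alone, no filter, DESeq2 1.42.0, all groups of a table in the fit, a replicate block, and leaving out each library in turn. The test was tried on simulated data with known changes. Depth ran from 642269 to 17834909 counts, and floors cover counting error only. No library was a repeat of another of its own group (118 pairs compared, chi-square per degree of freedom at least 1.83). Libraries of different groups were not compared in this way. Peaks were merged into regions and tied to a gene when within 10 kb of it.

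All 6 receptor genes are given in every comparison. From the lists of other genes, up to 3 of the highest and 3 of the lowest called genes with a mean of at least 20 CPM were named in 5 comparisons, except 1 gene that is not reported here, and beside each receptor the 3 genes most alike over 21 groups. Fcrls, B2m, Hcst and Inpp5d also met this rule, and the neighbouring genes were named outside it. All of these were chosen after their values were seen. The receptor genes and the lists were chosen with earlier results of these data known. Replicate numbers met the rule for pairing (every pair's correlation of deviations over 0.1) only between CD11b high and CD11b low Lip cells (4 pairs, 0.105 to 0.248). KO and WT cells of the 10-week chimeras narrowly missed it (3 pairs, 0.0977 to 0.124). There 6 of 6 libraries correlated best with the library of their own number, so the unpaired test may ignore a pairing.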

Additional observations from a re-analysis of the deposited data

Results flagged for a closer look

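The KO effect on 7 receptor values differed between groups by a direct test of the difference, with edgeR's quasi-likelihood test and adjustment over all genes. The KO effect on Fcgr3 was smaller in females of facility 2 than of facility 1 (log2 -1.03, adjusted p = 0.036). That call was lost in most refits without 1 library, with the replicate block (adjusted p = 0.118) and with all groups in 1 fit (0.104). The rise of Fcgr2b was larger in KO than in Lip cells, by log2 1.91 in CD11b low cells (adjusted p = 5.87e-05) and 2.21 in CD11b high cells (adjusted p = 3.64e-06). The Fcgrt effect was lower in KO than in Lip CD11b high cells (log2 -1.69, adjusted p = 8.56e-04). KO, Lip and their WT cells belong to separate mouse lines, so line and allele cannot be told apart in these values. In the mixed chimeras the effect at 10 weeks minus that at 5 weeks was 1.06 for Fcgr2b (adjusted p = 0.0111), -1.61 for Fcgr4 (adjusted p = 0.0386) and -1.22 for Fcgrt (adjusted p = 0.00372). The Fcgr4 call was lost in most refits without 1 library and without the filter on low counts (adjusted p = 0.0692). None of the 78 sets tested (6 genes in each of 13 groups of 4 libraries) held a library that stood apart by Dixon's criterion, where chance would give 3.9, and groups of 2 or 3 libraries were not tested.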

How the results depend on the processing

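No receptor value changed direction past the threshold under any alternative. Counts of called receptor genes are given here as the alternative's value followed by the reported one. Here, and for refits without 1 library below, only counts that changed by over 1.5 times are listed. Smaller changes are left out, such as the loss of Fcgr1 in CD11b high KO cells against WT with library totals alone. With library totals alone, the difference of KO effects between facilities gave 2 against 1 and CD11cCre 2 against 4. Without the filter on low counts the facility difference gave 2 against 1. DESeq2 gave 1 against 0 for het cells and 2 against 1 for the facility difference. With all groups of a table in 1 fit, males gave 1 against 3, the facility difference 0 against 1, CD11cCre 1 against 4, Lip CD11b high against low 2 against 4, and Ly6Chi monocytes 1 against 2. With the replicate block, KO CD11b high against low gave 1 against 3, males 1 against 3 and the facility difference 0 against 1. The calls lost there were Fcgr2b and Fcgr4 between the KO fractions (adjusted p = 0.053 and 0.0544), Fcgr3 and Fcgrt in males, and Fcgr3 between facilities. Where the numbers paired the samples (Lip CD11b high against low) the block changed no count by over 1.5 times.

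Leaving out 1 library gave 0 to 2 called genes for KO CD11b high against low, 0 to 1 for het, 1 in males throughout, 0 to 2 for the facility difference, 0 to 4 for LyzMCre, 1 to 4 for CD11cCre, 1 to 2 for E18 preAM and for Ly6Chi monocytes, 1 to 3 for chimeras at 5 weeks, 3 to 6 for RNA-for-ATAC KO and 1 to 2 for RNA-for-ATAC Lip. In arms of 2 libraries the lone library left is assumed to vary like the others. Of 144 values per setting, 125 (all groups) to 142 (RLE size factors) were counted as the same. Of all values from refits without 1 library, 993 were counted as the same. Values counted apart as moved are not among these: 3 with all groups, 1 with RLE size factors and 40 in the refits. Fcgr2b had 7 ChIP regions within 10 kb, 17 within 50 kb and 5 at a -log10 q of at least 10. The cause of these differences was not tested. Groups of 2 to 4 libraries limit what could be called, and a receptor gene not called is not shown to be equal between groups.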
